A study of Drosophila melanogaster with 33 samples.

Results

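The genes described here are named for the proteins of the cytoplasmic ribosome of Drosophila melanogaster. They were chosen by name alone, as every gene of the dm6 gene models whose symbol starts with RpL (large subunit) or RpS (small subunit), and mitochondrial ribosomal protein genes were left out. This gave 92 genes of 18277, all protein coding, with 54 RpL and 38 RpS members. Of these, 19 lay on chromosome arm 2L, 21 on 2R, 14 on 3L, 23 on 3R, 1 on chromosome 4 and 14 on the X. The choice by symbol leaves out sta, which encodes the small subunit protein RpSA, and Rack1. The libraries are ATAC-seq libraries, in which the Tn5 transposase cuts and tags open chromatin, from cells sorted out of adult fly brains. Clock neurons were sorted as GFP-positive cells from flies in which Clk-GAL4 drove UAS-GFP-NLS, a nuclear GFP, and non-clock cells were the GFP-negative cells of such brains, a mix of other neurons and glia. Clk-GAL4 marks nearly all clock neurons, so the sorted cells mix many subtypes, and each library pools the brains of many flies.

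The genotype labels give Clk-GAL4 and UAS-GFP-NLS over a wild-type chromosome for all 33 libraries. Flies of the genotype per01/Y, which lack a working period gene, gave 4 clock-neuron libraries at CT36 (subjective dusk), 4 at CT24 (subjective dawn) and 4 of non-clock cells, all in constant darkness (DD). Wild-type flies in DD gave 3 clock-neuron libraries at CT36, 3 at CT24 and 3 of non-clock cells. Wild-type flies under light-dark cycles (LD) gave 4 clock-neuron libraries at ZT12 (lights off), 4 at ZT0 (lights on) and 4 of non-clock cells. The labels give no time for non-clock cells, so both clock-neuron times were pooled where cell types, light regimes or genotypes were compared. The labels number the libraries as repeats and do not say more about their source, so p-values measure the spread between these libraries.

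Ribosomal proteins are assembled with ribosomal RNA in the nucleolus into the large subunit, which forms peptide bonds, and the small subunit, which decodes the message. Their genes are transcribed in every growing or active cell, and in Drosophila many of their promoters carry the TCT initiator, a pyrimidine-rich element at the transcription start, in place of the common initiator and TATA box. Several also carry the DNA replication-related element (DRE), the site of the factor Dref, and a few have paralogs that in flies are known for high expression in the germline.

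The accessibility of a site was measured as the number of tags at the summit of its peak per 1000000 tags of the library (CPM). Clock-neuron libraries held 4.18 to 17.0 M tags (M, 1000000; median 9.57 M) and non-clock libraries 16.7 to 36.2 M (median 23.8 M), so a weak peak could be called more easily in non-clock cells. A library without a call was given its own lowest called value, 1.47 to 2.63 CPM in clock neurons and 1.18 to 1.55 CPM in non-clock cells, and such sites were not detectable at this depth rather than closed. The sort was checked on marker genes. In clock neurons, the strongest regions of Clk, tim, vri and other clock-neuron genes were higher than in non-clock cells for 6 of 7 genes tested in LD, 5 of 6 in DD and 5 of 6 in per01, with a summed level of 69.9 to 94.5 CPM in clock neurons and 37.5 to 44.1 CPM in non-clock cells. The region of Pdf, the neuropeptide of the lateral clock neurons, was called in 6 of 22 libraries of clock neurons but 0 of 11 of non-clock cells, and that of NPF in 19 of 22 and 0 of 11. Fat body markers (Lsp2, Fbp1 and Yp1) had no region in any library.

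The promoters of the members that the results turn on are shown here, from 100 bases before the start of transcription to 20 bases from the start on, 5′ to 3′ on the gene strand. They are RefSeq sequence of Release 6 (dm6). Capitals mark the TCT initiator letters CTTTCC or CTTTTC within 50 bases of the start, the DRE letters TATCGATA, and in RpS5a and RpS5b the CTTT core within 5 bases of the start. The first set had some of the highest start peaks. It holds RpL3 (chr3R:11221794-11221913, plus strand), RpL8 (chr3L:2587356-2587475, plus strand), RpL23A (chr3L:1668635-1668754, minus strand) and RpL28 (chr3L:3222939-3223058, minus strand), whose products all sit in the large subunit.
RpL3: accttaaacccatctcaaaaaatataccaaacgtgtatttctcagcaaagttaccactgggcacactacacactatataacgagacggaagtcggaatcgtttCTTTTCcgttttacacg
RpL8: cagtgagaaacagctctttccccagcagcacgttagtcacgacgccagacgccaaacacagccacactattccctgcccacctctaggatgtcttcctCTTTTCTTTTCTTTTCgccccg
RpL23A: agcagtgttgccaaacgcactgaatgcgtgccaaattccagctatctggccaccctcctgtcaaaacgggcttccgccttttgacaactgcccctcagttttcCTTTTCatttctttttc
RpL28: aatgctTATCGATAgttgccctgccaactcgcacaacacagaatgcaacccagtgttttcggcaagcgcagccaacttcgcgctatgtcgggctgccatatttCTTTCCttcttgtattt

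The second set differed between genotypes, light regimes or cell types. It holds RpL36A (chr2L:8042890-8043009, minus strand) and RpL17 (chrX:6744219-6744338, minus strand), which differed between per01 and wild type. RpL37-1 (chrX:15139348-15139467, minus strand) differed between DD and LD, and RpL15 (chr3L:27267156-27267275, plus strand) between clock neurons and non-clock cells. Of these, RpL17 and RpL15 hold neither set of letters.
RpL37-1: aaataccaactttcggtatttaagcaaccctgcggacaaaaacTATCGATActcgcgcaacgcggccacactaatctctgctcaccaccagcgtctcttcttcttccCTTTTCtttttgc
RpL36A: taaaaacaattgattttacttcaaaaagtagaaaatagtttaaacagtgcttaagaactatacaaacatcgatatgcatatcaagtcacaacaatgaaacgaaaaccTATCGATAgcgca
RpL15: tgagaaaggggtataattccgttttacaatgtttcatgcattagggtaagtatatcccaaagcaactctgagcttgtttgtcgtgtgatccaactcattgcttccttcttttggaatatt
RpL17: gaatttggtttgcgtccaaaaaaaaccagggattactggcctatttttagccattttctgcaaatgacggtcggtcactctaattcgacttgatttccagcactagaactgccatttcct

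The third set is a pair of paralogs with unlike peaks. RpS5a (chrX:17148245-17148364, minus strand) and RpS5b (chr3R:14901544-14901663, minus strand) encode forms of the same small subunit protein, and RpS5b is known for expression in the ovary.
RpS5a: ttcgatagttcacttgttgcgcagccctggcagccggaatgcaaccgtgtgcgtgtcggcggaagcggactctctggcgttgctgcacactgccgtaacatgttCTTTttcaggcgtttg
RpS5b: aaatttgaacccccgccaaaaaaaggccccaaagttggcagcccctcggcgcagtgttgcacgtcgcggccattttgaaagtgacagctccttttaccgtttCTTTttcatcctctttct

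Over all 92 promoters, from 250 bases before the start to 50 bases from the start on, TCT letters on the gene strand within 50 bases of the start were found in 43 (46.7%), against 7.03% of 13945 protein-coding promoters. The share was 5.48% for mitochondrial ribosomal protein genes, 21.2% for translation factors (eIF and eEF genes) and 6.25% for proteasome genes. With the C within 5 bases of the start, 20 members (21.7%) held them, against 0.803% of all. The shorter core CTTT within 5 bases of the start, a search added after the data were seen, was in 42 members (45.7%), against 5.72% of all. Searched on both strands over the whole promoter, the DRE letters TATCGATA were in 28 members (30.4%) and 8.94% of all, and the Motif 1 core GGTCACAC in 14.1% and 7.54%. The DRE share was 26.9% for translation factors, 25% for proteasome genes and 20.5% for mitochondrial ribosomal protein genes. The Motif 1 shares of these lists were 11.5%, 12.5% and 11.0%, in the same order. Among starts called in all 33 libraries, DRE letters were in 27.1% of members and 13.5% of all protein-coding genes. Motif 1 was in 12.5% and 15.4% of these. The canonical E-box CACGTG, the element bound by the clock factors CLK and CYC, was in 11 members (12.0%) and 4.26% of all. CTTT lies within both TCT letter sets, which can share a C, and GGTCACAC can share letters with CACGTG, so matches can overlap, and a match says only that the letters are there. Members with TCT letters within 50 bases had a median start level of 5.66 CPM and those without 6.91 CPM, and 58.1% and 46.9% of them had a start peak in all 33 libraries. With the C within 5 bases of the start the medians went the other way, at 6.57 CPM with and 6.30 CPM without. For the DRE letters the medians were 6.20 CPM with and 6.51 CPM without. The median GC content of the promoters was 37.5%, against 38% for all.

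Most of these promoters were open in every library. Within 250 bp of the start, 88 of 92 members had a peak over the start in at least 1 library and 60 (65.2%) had one in all 33, against 29.3% of protein-coding genes, 42.5% of mitochondrial ribosomal protein genes, 53.8% of translation factors and 33.3% of proteasome genes. Counting only peaks whose summit lay within that window, 48 members (52.2%) were called in all 33 libraries and 38 in some, against 21.1% of protein-coding genes called in all 33. Depth moved with these counts, since 65 to 84 members were called in a clock-neuron library (median 74.5, 22 libraries) and 78 to 85 in a non-clock library (median 81, 11 libraries). The summit lay at a median of 37.5 bp before the start, with quartiles of 65.5 and 10 bp before it, and the peaks were 197 bp wide at the median, against 170 bp for all genes.

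The levels of the called starts lay near those of other genes. The median start level of the members with a call was 6.38 CPM, against 5.47 CPM for all protein-coding genes with a call, 4.49 CPM for mitochondrial ribosomal protein genes, 5.85 CPM for translation factors and 4.07 CPM for proteasome genes. Among starts called in all 33 libraries the members had a median of 8.39 CPM and all protein-coding genes 9.22 CPM. These 48 members spanned 4.75-fold in mean level, with RpL24 lowest at 4.63 CPM and RpL3 highest at 22.0 CPM. The median was 8.57 CPM for 32 RpL members and 7.79 CPM for 16 RpS members.

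RpL3, whose protein lies close to the peptidyl transferase centre, led with 16.5 to 26.7 CPM over the libraries. It was followed by other members, among them RpLP0-like at 18.3 CPM, RpL8 at 13.7 CPM, RpS29 at 13.5 CPM and RpS4 at 13.0 CPM. RpLP0-like shares its peak with 14-3-3zeta, whose start is 87 bp away, and RpL3 shares a region with the start of CG6693, so these levels belong to pairs of starts. RpL8, part of the peptidyl transferase centre as well, ranged over 11.03 to 17.3 CPM, which met the RpL3 range only at its upper end. RpS29 (9.90 to 18.5 CPM) and RpS4 (7.86 to 18.3 CPM) overlapped RpL8 throughout, so the order of these 3 did not exceed their spread over libraries. Across the libraries the highest value of a member was a median of 2.14-fold its lowest (1.55-fold for RpS28b at the low end), against 1.94-fold over the 3228 starts of any gene type called in all 33.

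**Figure D1:**
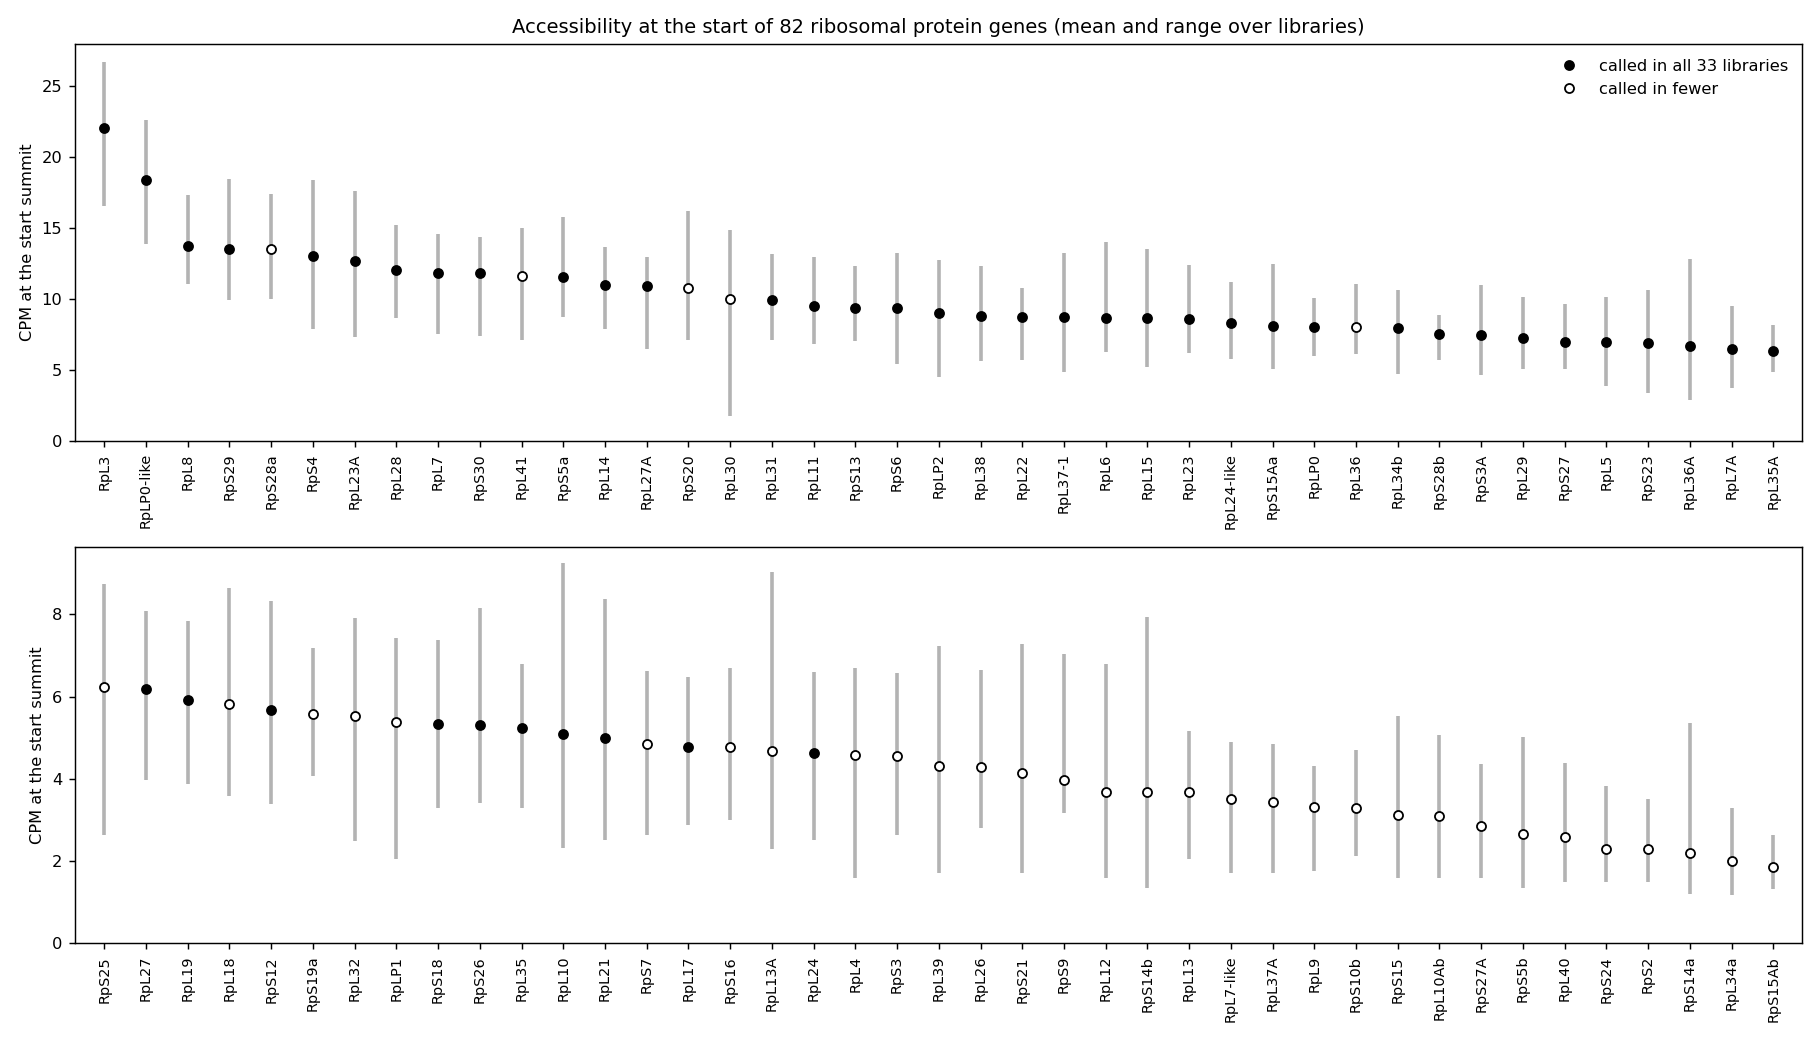
Mean CPM at the start summit (points) with the range over libraries (bars) for 82 of the 86 members with a start call, ordered by mean. Filled points were called in all 33 libraries, open points in fewer, uncalled libraries counting at their lowest called value, and libraries with a peak over the start but its summit outside the window left out. RpL3 leads at 22.0 CPM and RpS15Ab is lowest at 1.86 CPM.

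In pairs of members that are paralogs by name, the start peaks were usually unequal. RpS5a averaged 11.5 ± 1.76 CPM and was called in all 33 libraries, and RpS5b averaged 2.67 ± 0.786 CPM (SD, n = 33 each) with a call in 23, with RpS5a higher in each of the 33. RpS15Aa averaged 8.10 CPM and RpS15Ab 1.86 CPM (8 libraries called), RpL34b 7.89 CPM and RpL34a 1.99 CPM (6 libraries), and RpL7 11.8 CPM and RpL7-like 3.50 CPM (29 libraries). RpL10Ab, RpS10b, RpS19a, RpL22 and RpL37-1 had start calls in 25, 30, 32, 33 and 33 libraries, while their partners RpL10Aa, RpS10a, RpS19b, RpL22-like and RpL37-2 had none. Of these, RpS10a had a peak over its start in 32 libraries with the summit farther off. With RpS28-like, whose start lay under a peak in 3 libraries, these are the 6 members without a start call in any library.

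In other pairs the copy named as a variant was the higher, or the copies could not be split. RpL24-like, which in yeast has a counterpart in ribosome assembly, was higher than RpL24 in each of 33 libraries, at 8.24 ± 1.41 CPM against 4.63 ± 0.991 CPM. RpLP0-like was higher than RpLP0, at 18.3 ± 2.12 CPM and 7.98 ± 1.03 CPM, with the shared 14-3-3zeta start named above. RpS28a was called in 28 libraries, 194 bp from the start of Axn, at a mean of 13.5 CPM, and RpS28b in 33 at 7.48 CPM. RpS14a and RpS14b are near-identical copies on the X whose reads the mapping can share between them, so their split is uncertain. RpS14a was called in 4 libraries and RpS14b in 12.

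**Figure D2:**
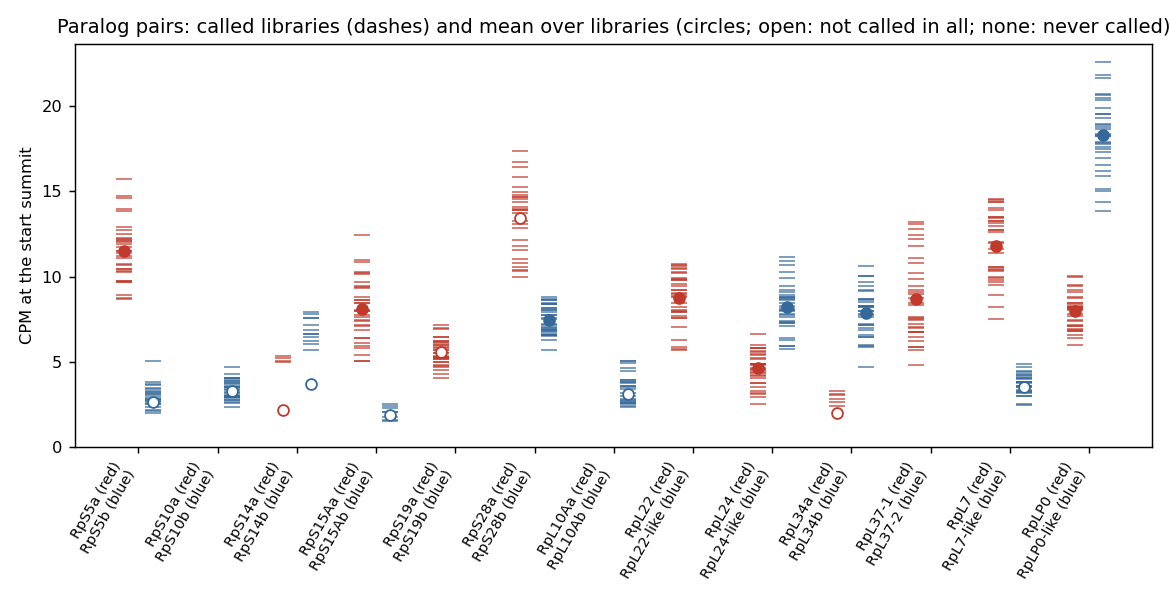
CPM at the start summit of 13 paralog pairs, with a dash for each library with a call, a circle for the mean over libraries (uncalled libraries at their lowest called value, so a circle may lie under its dashes), open where not all 33 were called, and no mark where a member was never called. RpS5a sits at 11.5 CPM and RpS5b at 2.67 CPM, while RpL24 sits at 4.63 CPM and RpL24-like at 8.24 CPM.

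For tests between groups each gene was represented by its lead region, the merged peak region with the highest mean level among those that overlap the gene body or the 1 kb before it. The members had 205 such regions, at a median of 2 per member and at most 5. RpL10Aa, RpL22-like and RpL37-2 had none. Of the other 89, 69 (75% of 92) had a lead region called in all 33 libraries, against 36.02% of all genes. The 20 that did not were RpL4, RpL9, RpL12, RpL13, RpL17, RpL30, RpL34a, RpL37A, RpL40, RpLP0, RpLP1, RpS2, RpS3, RpS5b, RpS15, RpS15Ab, RpS24, RpS25, RpS27A and RpS28-like, with calls in 3 (RpS28-like) to 32 libraries. The lead regions had a median mean level of 8.24 CPM. Among the 5 highest were RpLP0-like at 47.2 CPM, RpL3 at 22.0 CPM, RpS14b at 20.8 CPM and RpS28b at 20.5 CPM. The lowest were RpS28-like at 1.81 CPM, RpS15Ab at 1.86 CPM, RpL34a at 2.01 CPM, and RpS24 and RpS2 at 2.30 CPM each.

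A lead region is not always the gene's own promoter in a genome this dense. The lead summit lay within 250 bp of the member's start for 54 members and farther off for 35, of which 23 lay in a region that holds another protein-coding start. The lead of RpLP0-like was at -1402 bp from its start, and that of RpS14b lay over Ubr3. Each comparison below was therefore also run over the start summits of all genes, an alternative chosen after the data were seen.

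In clock neurons these regions were somewhat less accessible than in non-clock cells. In LD, 28 of 86 members tested were lower and 1 was higher, with a member median of -0.17 on the log2 scale and a median of 0.04 over all regions tested. The background was 21.4% lower and 19% higher among the lead regions of all genes, and 21.9% lower and 33.9% higher among all regions. In DD, 55 of 87 were lower and none was higher (median -0.30, all regions -0.04, backgrounds of lead regions 27.3% lower and 17.7% higher, of all regions 24.9% lower and 27.6% higher). In per01, 22 of 87 were lower and 1 was higher (median -0.14, all regions -0.02, backgrounds of lead regions 19.5% lower and 14.6% higher, of all regions 21.1% lower and 26.5% higher). All calls are from limma with Benjamini-Hochberg adjustment over all regions at a threshold of 0.1. Against these backgrounds the members' share was above in DD and closer in LD and per01, and the higher calls were fewer than the background in all 3. The lead regions of all genes had negative medians too, so part of the distance from the median of all regions is shared by lead regions in general. Off the X these medians were -0.05 in LD, -0.11 in DD and -0.06 in per01. On the X they were -0.12, -0.14 and -0.13. RpL34a, among the 22, was called in 4 of 4 per01 non-clock libraries and in 0 of 8 of clock neurons, so it entered the fit only through the cells where it was high, and 21 lower members remain without it.

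Other housekeeping lists had medians of the same sign. Mitochondrial ribosomal protein genes had medians of -0.17 in LD (19 of 60 lower), -0.27 in DD (29 of 62) and -0.13 in per01 (11 of 61). Proteasome genes had -0.12 (8 of 33), -0.29 (18 of 35) and -0.14 (3 of 34), and translation factors -0.08 (9 of 44), -0.15 (15 of 45) and -0.05 (5 of 44), in the same order. Biogenesis factors and regulators, among them Fib and Dref, had -0.07 (5 of 17), -0.27 (7 of 18) and -0.16 (5 of 19). In the start fit the shift was smaller, and in LD the share of lower calls was near the background. Each fit was scaled over its own sites, so the changes of the start fit and the lead fit are not on 1 scale. In DD, RpL15 had the same CPM in both and changed less in the start fit (-0.71). The part of scaling in the smaller shift and the fewer calls was not tested. In LD, 4 of 75 member starts were lower (RpL12, RpL10, RpL18 and RpS6, background 5.16%), in DD 22 of 78 (background 10.5%) and in per01 9 of 77 (background 6.35%), and none was higher, with backgrounds for higher of 8.92%, 10.7% and 6.45%. RpS14a in DD and RpL34a in per01 had start calls in non-clock cells only, and 21 and 8 lower members remain without them. Within each library, the median level of the 48 members relative to that of all starts called in 33 libraries was 0.762 to 0.977 in clock neurons (median 0.832) and 0.857 to 0.993 in non-clock cells (median 0.929), and the ranges overlapped.

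11 members were lower in clock neurons in all 3 comparisons, namely RpL5, RpL10, RpL12, RpL15, RpL38, RpLP2, RpS4, RpS10a, RpS12, RpS15Aa and RpS25. That is 12.9% of the 85 members tested in all 3, against 6.96% of the lead regions of all genes. LD and DD share no library with each other, and neither shares one with per01. Between LD and per01, 12 lower calls were shared, 42.9% of the 28 in LD and 54.5% of the 22 in per01, which is 14.1% of the 85 members tested in both, against 11.1% of all lead regions. RpL10 and RpL12 were also lower at their own starts in all 3.

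RpL10, which joins the large subunit late in assembly near the tRNA sites, was measured at its own start. In LD it had 4.42, 4.83, 3.11 and 3.35 CPM in clock neurons at ZT0 and 3.33, 5.09, 3.75 and 2.32 CPM at ZT12, against 7.13, 4.55, 5.56 and 6.46 CPM in non-clock cells. In DD it had 3.48, 4.13 and 3.76 CPM at CT24 and 3.55, 4.09 and 3.87 CPM at CT36, against 6.34, 9.25 and 4.86 CPM in non-clock cells. The groups did not overlap in DD, and in LD 1 non-clock library lay among the clock-neuron values. On the log2 scale RpL10 changed in the lead fit by -0.55 ± 0.17 in LD, -0.75 ± 0.18 in DD and -0.61 ± 0.16 in per01 (SE, limma adjusted p = 0.0141, 0.00475 and 0.00422). The start fit gave -0.48, -0.61 and -0.54, in the same order (limma adjusted p = 0.0571, 0.0237 and 0.0272).

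RpL15, a large-subunit core protein, was among the 11 as well. Its clock neurons had 5.44, 7.72 and 5.75 CPM at CT24 and 5.16, 6.14 and 6.93 CPM at CT36, against 11.1, 12.7 and 10.4 CPM in non-clock cells, with a gap between the groups. It changed by -0.85 ± 0.13 (SE, log2, limma adjusted p = 0.00029). In LD the clock neurons had 8.95, 6.64, 6.11 and 6.16 CPM at ZT0 and 7.52, 8.04, 7.23 and 5.33 CPM at ZT12, against 10.03, 8.18, 9.62 and 9.65 CPM in non-clock cells, where the groups overlapped through 1 library of each, with a log2 change of -0.32 (adjusted p = 0.0202).

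RpL5, which carries 5S ribosomal RNA into the large subunit, and RpL38, of the same subunit, were among the 11. In DD, RpL5 had 4.68, 5.44 and 5.68 CPM at CT24 and 4.59, 4.89 and 5.31 CPM at CT36, against 7.41, 8.98 and 8.13 CPM in non-clock cells, well apart, and changed by -0.64 (limma adjusted p = 0.000959), with -0.44 in LD (0.0257) and -0.48 in per01 (0.0041). RpL38, named after its values were seen for its adjusted p, had 7.40, 7.61 and 7.103 CPM at CT24 and 6.76, 7.02 and 6.48 CPM at CT36, against 10.2, 12.2 and 10.7 CPM in non-clock cells. Its groups did not overlap in DD, and it changed by -0.60 (0.000145), with -0.33 in LD (0.0188) and -0.47 in per01 (0.00333).

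RpL12, a protein of the stalk base of the large subunit, had the largest fitted change of the members in each of the 3 comparisons, with calls in few clock-neuron libraries. It was called in 3 of 8 clock-neuron libraries in LD at 4.30, 4.63 and 4.70 CPM, against 4 of 4 non-clock libraries at 5.00, 4.43, 4.66 and 5.33 CPM. In DD it was called in 2 of 6 at 4.55 and 5.07 CPM, against 3 of 3 at 5.97, 6.79 and 5.94 CPM. Where it was called, the LD groups overlapped and the DD groups did not, and the log2 changes of -0.82 in LD, -1.24 in DD and -0.94 in per01 (limma adjusted p = 0.029, 0.0152 and 0.00721) rest in part on missing calls in shallower libraries. With missing calls set to the local calling limit they were -0.60, -1.01 and -0.67. In per01 RpS27A, a fusion of ubiquitin with a small-subunit protein, changed by -0.72 (0.0057) and RpS25 by -0.62 (0.0211). RpS27A was called in 2 of 8 per01 clock-neuron libraries, so the same limit holds for it.

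The only member called higher, in LD and in per01, was RpL39, at +0.21 in LD (limma adjusted p = 0.0598) and +0.32 in per01 (0.0335). Its lead region lies at -1329 bp from the start, and at the start itself the change was -0.38 in LD (adjusted p = 0.416) and -0.76 in per01 (0.0682), the other direction. Cell composition moved with the cell-type comparison. The summed level of 6 glial markers was 14.3 to 20.3 CPM in clock neurons and 20.1 to 33.9 CPM in non-clock cells, and 3 of 4, 3 of 3 and 5 of 5 glial genes tested were lower in clock neurons in LD, DD and per01, with 1 higher in LD. The glial regulator repo was called in 1 of 22 libraries of clock neurons but 11 of 11 of non-clock cells, and alrm in 0 of 22 and 1 of 11. For moody it was 3 of 22 and 9 of 11, and for wrapper 0 of 22 and 6 of 11. Gs2 and Eaat1 were each called in 21 of 22 and 11 of 11, so glial sites were not absent from the clock-neuron libraries. Of 5 neuronal markers, 3 were lower in clock neurons and none higher in LD (median -0.14), 2 higher and none lower in DD (+0.16), and 1 lower in per01 (-0.07), and 1 of 2 photoreceptor markers tested was lower in each. Hemocyte markers were lower for 0 of 1, 1 of 2 and 1 of 1 tested in LD, DD and per01, and no fat body marker could be tested. Depth moved with the comparison too, and the part of composition or depth in the result was not tested. A bulk library cannot tell a smaller share of cells with an open site from less opening per cell.

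**Figure D3:**
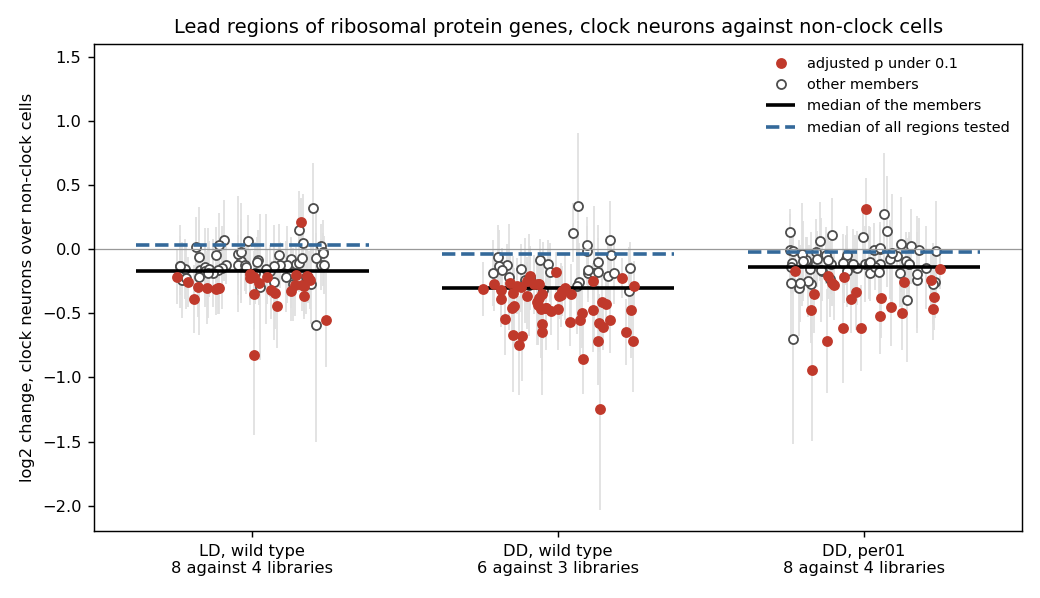
log2 change of the member lead regions, clock neurons over non-clock cells, for wild type in LD, wild type in DD and per01 in DD, with 95% intervals as grey bars and points spread sideways for clarity. Filled red points passed an adjusted p of 0.1, the black line is the member median (-0.17, -0.30 and -0.14) and the dashed line the median of all regions tested (0.04, -0.04 and -0.02), and most members lie below 0 in each. The lead regions of all genes, not drawn, had medians under the dashed line, at -0.05, -0.11 and -0.06 off the X.

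Time of day gave no call at these promoters, and few calls over all regions. In wild-type clock neurons the fit called 7 regions higher and 13 lower at ZT12, and 30 higher and 86 lower at CT36. The study, with DESeq2 on read ends over whole peaks, reported more differential peaks at the same threshold. The lack of calls is therefore not particular to the members. Between ZT12 and ZT0, 0 of 83 members passed (background 0.0167% of lead regions higher and 0% lower, 0.0359% and 0.0667% of all regions). Between CT36 and CT24 it was 0 of 84 (background 0.171% and 0.137% of lead regions, 0.164% and 0.471% of all regions), and between per01 CT36 and CT24 0 of 83 (0% and 0% of lead regions, 0% and 0.00594% of all regions). At the gene starts 0 of 73, 0 of 75 and 0 of 70 members passed, with backgrounds of 0% higher and 0.0193% lower, 0% and 0.057%, and 0% and 0%. By limma at an unadjusted p under 0.05, 3, 3 and 0 members passed, 3.61%, 3.57% and 0% of those tested, RpS27A among those in DD. The change of time effect between per01 and wild type gave 0 of 85 (0.0159% and 0% of lead regions), with 2 at an unadjusted p under 0.05, RpL37-1 and RpS27A.

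The intervals limit what could have been missed. The log2 changes ran from -0.47 (RpL13) to 0.46 (RpS19b) in LD, from -0.35 (RpS6) to 0.42 (RpL18) in DD, RpS27A left out, and from -0.38 (RpS25) to 0.42 (RpS5b) in per01, and the median half-width of the 95% interval was 0.32, 0.32 and 0.36. The whole interval lay within a 2-fold change for 82 of 83, 83 of 84 and 82 of 83 members, and within 1.5-fold for 68, 67 and 61. RpL3, the highest start, had 20.8, 22.1, 19.6 and 16.5 CPM at ZT12 against 20.0, 23.9, 17.2 and 16.5 CPM at ZT0, and 20.9, 19.3 and 21.4 CPM at CT36 against 23.0, 25.1 and 23.2 CPM at CT24. The first pair overlapped and the second did not, with a log2 change of -0.18 at an adjusted p of 0.479. RpL32, often used as a reference gene for transcripts, changed at its lead region by 0.06 in LD and -0.17 in DD (adjusted p = 0.987 and 0.689). That lead is not its start summit, with a mean of 8.56 CPM at CT36 against 5.04, 5.60 and 5.04 CPM at the start. The start changed by 0.04 in LD and -0.13 in DD (limma adjusted p = 0.995 and 0.981). RpS27A was called in none of 3 libraries at CT36 and in 3 of 3 at CT24, at 2.72, 3.81 and 2.49 CPM, close to the calling limit, so it entered the DD fit only through CT24 and its change is not given.

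Between light regimes the members split by chromosome. In clock neurons, DD against LD, 10 of 84 members were lower and 3 higher (background 11.5% lower and 11% higher among lead regions, 12.1% and 8.7% among all regions), and in non-clock cells 7 of 88 were lower and 15 higher (background 8% lower and 9.11% higher among lead regions, 8.33% and 7.71% among all regions). Every lower call in both cell types was X-linked. In clock neurons 10 of 14 X-linked members were lower and all 14 had a negative change (median -0.34), against 0 of 70 lower on other chromosomes (median -0.00). In non-clock cells 7 of 14 were lower (median -0.24), against 0 of 74 lower and 15 higher elsewhere (median 0.18).

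X-linked genes of all kinds moved the same way. Of all X-linked lead regions, 56.8% were lower in clock neurons (median -0.30) and 42.6% in non-clock cells (median -0.24), against 2.50% and 1.27% on other chromosomes (medians 0.03 and 0.11). The median level of 445 X-linked starts over that of 2462 autosomal starts was 0.895 to 0.976 in the 9 wild-type DD libraries, against 1.08 to 1.31 in the 12 wild-type LD libraries, with no overlap. It was 0.870 to 0.987 in the 12 libraries of per01/Y flies. Wild-type brains came from both sexes according to the study, and the labels give no sex per library. Light regime and the share of each sex therefore cannot be told apart for X-linked members.

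RpL37-1, an X-linked large-subunit gene, changed most of the members in clock neurons. It had 5.87, 6.74 and 4.83 CPM at CT24 and 6.99, 7.56 and 6.48 CPM at CT36, against 10.8, 13.1, 9.12 and 7.60 CPM at ZT0 and 9.23, 11.8, 8.33 and 5.88 CPM at ZT12. Only the lowest ZT12 library lay among the DD values, and the lowest ZT0 library at their upper edge. It changed by -0.59 ± 0.13 in clock neurons (SE, log2, limma adjusted p = 0.00697), and in non-clock cells, at 10.2, 9.86 and 8.44 CPM in DD against 12.8, 12.4, 13.2 and 12.2 CPM in LD, it was -0.39 (0.0207). RpL22 (-0.51) and RpS15Aa (-0.49) followed in clock neurons. In non-clock cells RpS14b (-0.49) had the largest of the lower calls, with RpL35 (-0.39) close to RpL37-1. RpS28-like was called in 3 of 4 LD libraries and in 0 of 3 in DD of non-clock cells, and its change is not given. The lead of RpS14b is the Ubr3 start, and its own start changed by +0.93 with an adjusted p of 0.313. 5 lower calls were shared by both cell types, RpL35, RpL37-1, RpS14b, RpS15Aa and RpS28b, which is 50% of those in clock neurons and 71.4% of those in non-clock cells. They are 35.7% of the 14 X-linked members, against 36.8% of all X-linked lead regions lower in both.

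Off the X, the higher calls in clock neurons were RpL40 (+0.37, limma adjusted p = 0.0779), RpL27A (+0.30, 0.0403) and RpLP0-like (+0.30, 0.000906). The leads of RpL40 and RpLP0-like lie at -728 and -1402 bp from their starts. At its own start RpL27A changed by +0.07 (limma adjusted p = 0.706), so its call was not found there. The RpL40 lead was called in 2 of 4 libraries at ZT0 and 2 of 4 at ZT12, near the calling limit. Its change therefore rests in part on missing calls. In non-clock cells the largest were RpL13 (+0.44, 0.0711), RpL4 (+0.42, 0.0599) and RpL23 (+0.39, 0.0414). RpL13 had 4.51, 5.12 and 4.09 CPM in DD, against 3.34, 3.18, 3.71 and 3.44 CPM in LD, without overlap, and its region also holds the start of Dref. The 22 members called in non-clock cells became 7 and 3 without the DD replicates 1 and 2, and 34, 6, 9 and 11 without the LD replicates 1, 2, 3 and 4, each left out in turn. At the gene starts, 5 of 12 X-linked and 0 of 63 other members were lower in clock neurons, with 4 of 12 and 0 of 67 for non-clock cells, with 2 higher off the X in clock neurons and 7 off the X in non-clock cells (backgrounds 11% lower and 8.28% higher, 9.11% lower and 6.13% higher). RpS14a is not counted here as higher, since it was called in 3 of 3 DD and 0 of 4 LD non-clock libraries.

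**Figure D4:**
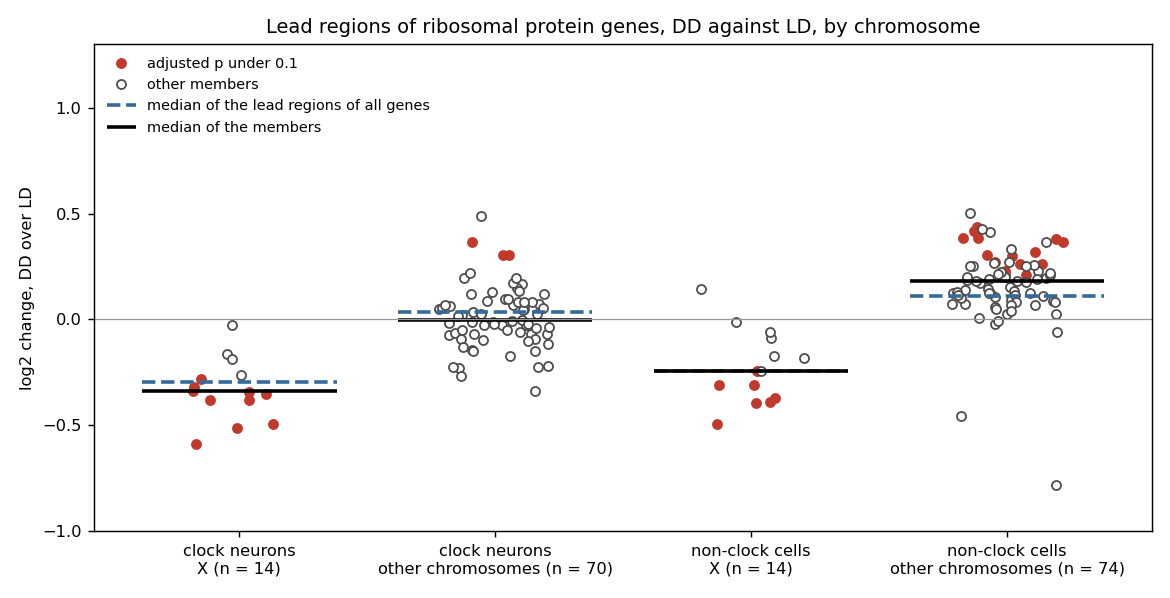
log2 change of the member lead regions, DD over LD, for X-linked members and members on other chromosomes, in either cell type, spread sideways for clarity. Filled red points passed an adjusted p of 0.1, the black line is the member median (-0.34, -0.00, -0.24 and 0.18) and the dashed line that of the lead regions of all genes on the same chromosomes (-0.30, 0.03, -0.24 and 0.11), the lines meeting for X-linked genes in non-clock cells.

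Between genotypes a few members differed, and several did so in both cell types. In per01 clock neurons against wild type in DD, 7 of 83 members were higher and 3 lower (background 5.77% higher and 7.65% lower among lead regions, 7.63% and 6.68% among all regions), and in non-clock cells 4 of 88 were higher and 5 lower (background 1.86% and 2.85% among lead regions, 2.19% and 2.68% among all regions). The clock-neuron and non-clock comparisons share no library. All 4 members higher in non-clock cells, among them RpL36A, RpL40 and RpS10a, were higher in clock neurons too, where they made up 57.1% of the higher calls. That is 4.82% of the 83 members tested in both, against 1.32% of the lead regions of all genes. The other 3 higher members of clock neurons were RpL4 (+0.52), RpL5 (+0.43) and RpL15 (+0.43). RpL17 and RpL32 were lower in both, 66.7% of the lower calls in clock neurons and 40% of those in non-clock cells, which is 2.41% of members and 1.7% of all lead regions. The 9 members called in non-clock cells became 4 without the wild-type replicate 1 and 15 without the per01 replicate 1. The labels give the per01 allele and the Y but no shared stock background, so per01 and other differences between the fly lines cannot be told apart.

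RpL36A, a large-subunit protein near the tRNA exit site, has its lead at its own start (31 bp before it) with no other start in the region. It had 10.46, 9.73, 12.8 and 7.87 CPM at per01 CT24 and 9.87, 10.2, 10.49 and 6.46 CPM at per01 CT36, against 5.11, 5.98 and 4.26 CPM at wild-type CT24 and 5.39, 4.45 and 2.88 CPM at wild-type CT36. In non-clock cells it had 10.45, 10.4, 10.3 and 8.56 CPM in per01, against 5.80, 6.06 and 5.16 CPM in wild type. Every per01 library was above every wild-type library, LD included, at 6.46 to 12.8 CPM in 12 per01 libraries and 2.88 to 6.44 CPM in 21 wild-type libraries. It was higher by 0.98 ± 0.15 in clock neurons, with 0.81 ± 0.10 for non-clock cells (SE, log2, limma adjusted p = 0.000228 and 0.0012).

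RpL40, a fusion of ubiquitin with a large-subunit protein, was higher at a lead region at -728 bp from its start that holds the start of CG3702. It had 5.96, 4.75, 4.08 and 3.99 CPM at per01 CT24 and 5.02, 4.50, 5.25 and 3.83 CPM at per01 CT36, against 2.50, 2.72 and 2.415 CPM at wild-type CT24 and 2.75, 3.02 and 3.33 CPM at wild-type CT36. In non-clock cells it had 5.45, 5.44, 5.64 and 4.85 CPM in per01, against 3.49, 3.55 and 2.67 CPM in wild type. Over all libraries the ranges were 3.83 to 5.96 CPM in per01 and 1.597 to 3.55 CPM in wild type, where 17 of 21 were called, and they did not overlap. The log2 change was +0.64 in clock neurons (limma adjusted p = 0.00678) and +0.74 in non-clock cells (0.0175). At its own start in non-clock cells it was -0.43 (adjusted p = 0.415), the other direction.

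RpL17, a large-subunit protein at the peptide exit tunnel, had its lead 584 bp inside the gene. There it was called in 5 of 8 per01 clock-neuron libraries, at 4.61, 4.47 and 2.99 CPM at CT24 and 3.54 and 3.91 CPM at CT36, against 6.31, 5.11 and 3.91 CPM at wild-type CT24 and 3.90, 5.60 and 4.95 CPM at wild-type CT36. In non-clock cells it had 4.13, 3.30, 3.23 and 3.17 CPM in per01, against 6.70, 6.43 and 5.68 CPM in wild type, a gap. Its log2 change was -0.69 in clock neurons (limma adjusted p = 0.0277) and -0.84 in non-clock cells (0.0084), and at its start -0.54 (0.0114) and -0.49 (0.0426). RpL17 is X-linked, and the X over autosome ratios of all starts overlapped between per01 and wild-type DD libraries. The same ratio over the 9 X-linked members, RpL17 among them, and 38 autosomal members called in all 33 libraries was 0.764 to 0.882 in per01 and 0.898 to 0.939 in wild type for non-clock cells, without overlap. In clock neurons it was 0.723 to 0.852 in per01 and 0.804 to 0.974 in wild type, and the part of the share of each sex was not tested. RpL32 changed by -0.27 (0.0763) in clock neurons, with -0.52 (0.024) for non-clock cells, and RpLP0-like by -0.14 (0.0439) in clock neurons, while RpL7A and RpS23 each changed by -0.56 in non-clock cells (0.031 and 0.0415). For RpL32 the call in clock neurons turned to +0.081 when summits within 150 bp were joined in place of overlapping peaks. Its lead is not its start summit, and at the start the change in clock neurons was -0.15 (limma adjusted p = 0.528).

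The genotypes were also compared at the gene starts. At the starts 7 of 70 members were higher and 2 lower in clock neurons, and 4 of 79 higher and 5 lower in non-clock cells (background 4.76% and 5.32%, 2.73% and 3.38%). RpL36A, RpS15 and RpL5 were among those higher in both, and RpL17 was among those lower in both. The RpL17 start had 2.88 to 4.38 CPM in per01 libraries and 4.08 to 6.48 CPM in wild-type libraries, which overlapped at the edge.

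**Figure D5:**
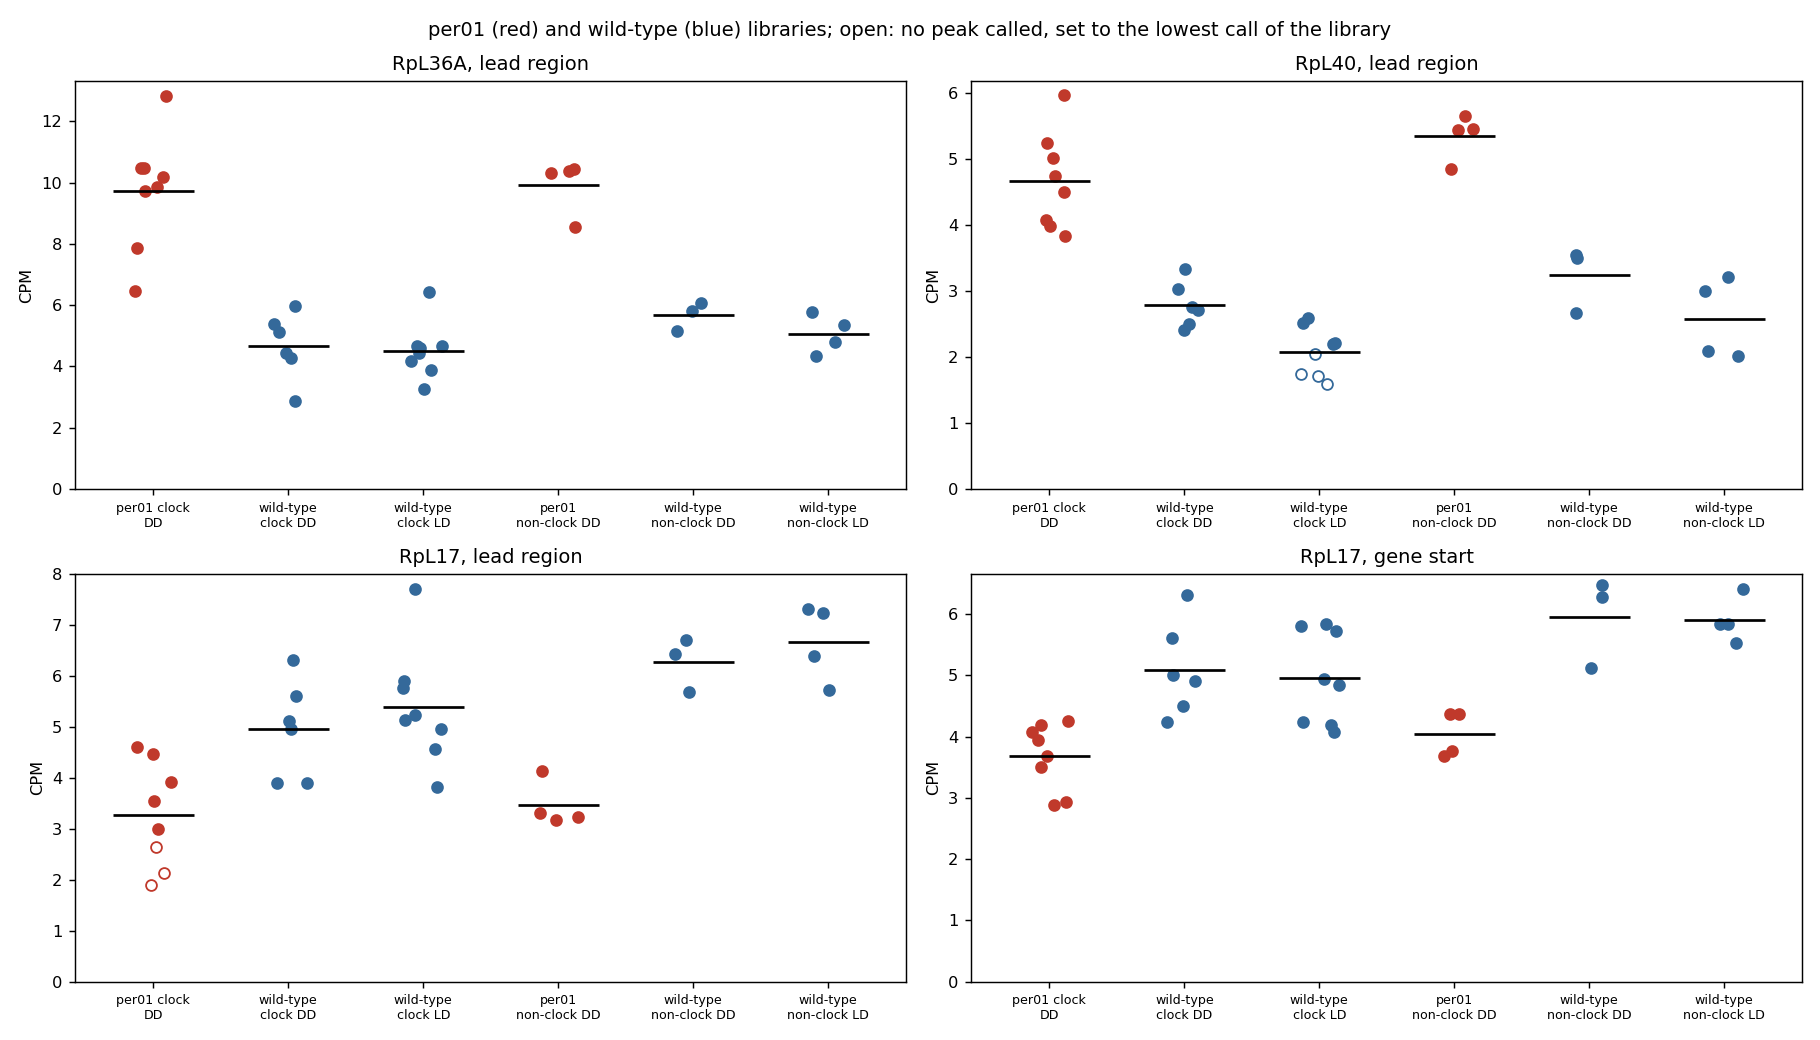
CPM in each library at the lead regions of RpL36A, RpL40 and RpL17 and at the start of RpL17, for per01 (red) and wild type (blue) by cell type and light regime, with the mean as a black line and open points, set to the lowest called value of the library, where there was no call. For RpL36A and RpL40 each per01 library lies above each wild-type library, while for RpL17 the per01 libraries lie low with some overlap.

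The cell-type change itself differed between DD and LD for 3 of 89 lead regions, all more negative in DD (background 2.9% more negative and 1.23% less). These were RpL15 at -0.54 (limma adjusted p = 0.0965), RpL26 at -0.50 (0.0948) and RpL23 at -0.49 (0.0725). RpL26 and RpL23 changed by 0.03 and -0.06 in LD and by -0.46 and -0.55 in DD. Leaving out 1 library gave 0 to 4 such members, with 0 without the CT24 replicate 1, the non-clock DD replicates 1 and 2 or the non-clock LD replicates 2, 3 and 4, and 1 without the CT24 replicate 3, the CT36 replicates 1 and 3, the ZT12 replicates 1, 2 and 3 or the ZT0 replicate 4.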

How the data were processed

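ATAC-seq peaks of 33 libraries were used. Per the labels and methods, the authors trimmed reads with cutadapt 4.1, mapped them to dm6 with Bowtie2 2.4.5, removed mitochondrial reads with SAMtools 1.15.1 and duplicates with Picard 2.27.4, and called peaks in each library, without pooling, with MACS2 2.2.7.1 at q 0.001 (shift -37, extension 74 bp). The deposited score is the −log10 q multiplied and cut to a whole number, and was not used. The deposited fold enrichment (a ratio) at the summit, and the −log10 p and −log10 q, were made by the authors with MACS2 against the local background of the same library.

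Tags at each summit were solved from the deposited fold and −log10 p and were whole within 0.02 for every peak. Total tags came from the genome-wide background, and CPM are tags at the summit per 1000000 total tags. They describe only the highest point of a called peak, so they differ from the read ends that the authors counted over whole peaks. Peaks sharing at least 1 bp were merged, and log2(tags + 1), scaled by the median of ratios, was fitted by limma (3.58.1, under R 4.3.3) over regions whose number of calls reached the size of the smallest group, with only the libraries compared in each fit and the Benjamini-Hochberg threshold of 0.1 that the study used. Changes of 2-fold and 1.5-fold put into simulated data were found for 100% and 80% (cell type in LD), 92% and 49% (ZT12 against ZT0) and 91% and 55% (CT36 against CT24) of the regions that carried them. The simulation changed 200 regions and held only those called in every library compared, 12662 for ZT12 against ZT0, where the fit tested 19486. It had no missing calls, so these rates do not apply to members called in only part of the libraries.

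Gene models were from Ensembl and sequences from RefSeq, both of Release 6. In the start fit, genes with a peak over the start but its summit farther than 250 bp off in any library compared were dropped. That fit was scaled over the starts alone, so its changes and counts are not on the scale of the lead fit. Members, lists, motifs and markers were chosen with earlier results of these data known. The text names the 5 highest and 5 lowest members, up to 3 called members in each direction per comparison, paralogs, members not called in every library, and RpL32. A few members and their results are not reported here. Genes named for calls at their starts, and members shared between comparisons, were named after their values were seen. Alternatives were scaling by total tags, regions called in every library, missing calls at the local limit, stricter peaks (−log10 q of 5), summits within 150 bp, a replicate block, a window of 250 bp around the start, the sum of all regions of a gene, and each library left out. Figures were drawn with matplotlib 3.10.9, and tables were made in Python 3.11.15 with scipy 1.17.1, numpy 2.4.6 and pandas 2.3.3. Intervals cover the spread between libraries, and the number of libraries and the depth limit the precision.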

Additional observations from a re-analysis of the deposited data

Results flagged for a closer look

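In 78 checks, each of 1 member in 1 group of 4 libraries, 1 library stood apart from the others of its group at 5 places. Chance alone gives about 1 in 20 checks. RpL12 was highest at 4.70 CPM in 1 ZT12 library and at 5.34 CPM in 1 per01 CT24 library, where the others had no call. Those others stood at the value given to missing calls, so the RpL12 places cannot be set against the chance rate. RpL36A was lowest at 6.46 CPM in 1 per01 CT36 library and at 8.56 CPM in 1 per01 non-clock library. RpL17 was highest at 4.13 CPM in 1 per01 non-clock library.

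The cell-type change differed between DD and LD for the lead regions of RpL15 (-0.54), RpL26 (-0.50) and RpL23 (-0.49). The RpS14a start was called in 3 of 3 wild-type non-clock DD libraries, at 5.35, 5.00 and 5.25 CPM, and in 1 per01 non-clock library at 5.03 CPM, and in no other library. No change is given for it, since it would rest on the value given to missing calls, and its copy RpS14b can share its reads.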

How the results depend on the processing

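Counts are of members called in either direction. For clock neurons against non-clock cells in LD (29) they were 48 with scaling by total tags and 4 at gene starts, in DD (55) 22 at gene starts, and in per01 (23) 12 with total tags and 9 at gene starts. For DD against LD the count was 7 at gene starts for clock neurons (13), and for non-clock cells (22) it was 10 with summits within 150 bp, 9 with a replicate block and 12 at gene starts (1 of them RpS14a, with calls in DD only). The change of cell type between DD and LD (3) gave 1 with total tags, 0 with regions called in every library, 1 with summits within 150 bp and 1 at gene starts (RpS14a again). The median lead level was 8.24 CPM, 11.3 CPM with all regions of a gene summed and 6.38 CPM at gene starts, and the 69 members called in all 33 libraries were 48 at gene starts. Single members that reversed were RpL39 at gene starts (-0.38 in LD, -0.76 in per01), RpS14b at gene starts (0.93), RpL32 with summits within 150 bp (0.081) and RpL40 at gene starts (-0.43).

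Leaving out each library in turn gave 17 to 34 (LD), 38 to 60 (DD) and 15 to 25 (per01) for cell type, 11 to 14 and 3 to 34 for the regime in clock neurons and for non-clock cells, 7 to 14 and 4 to 15 for genotype, 0 to 4 for the change of cell type, and 0 to 0 for every comparison of times. The lowest came without the non-clock LD replicate 3, the wild-type non-clock DD replicate 1, the per01 non-clock replicate 2 and the CT24 replicate 2 in the first 4 of these. The time counts were 0 in every alternative run. Libraries whose loss moved a count by over 1.5 times are named beside it in the text or in the sentence before. The causes were not tested.

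Deviations of same-numbered libraries correlated at a mean of 0.13, 0.08 and 0.10 for cell type in LD, DD and per01 (-0.04, -0.04 and -0.03 for other pairs), 0.21 for ZT12 against ZT0 (-0.08 to 0.48), -0.01 for CT36 against CT24 and 0.12 for per01. In these, 9 of 12, 7 of 9, 9 of 12, 5 of 8, 1 of 6 and 4 of 8 libraries correlated best with their own number. Not every pair exceeded 0.1 in any of them, so the numbers were not taken as pairs. Whether same-numbered libraries shared a source was not tested, and the p-values of the main fits take no account of it. Apart from non-clock cells in DD against LD, the replicate block moved no count by over 1.5 times, though 7 single members lost their call under it. Depth limits the low members most, since a member at 2 to 4 CPM lies near the calling limit of a shallow clock-neuron library.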
